A study of Mus musculus with 4 samples.

Results

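The 10 genes followed here encode surface or secreted molecules through which macrophages restrain or license T cells, or receive signals from them, measured in tumor-associated macrophages (TAMs). They were listed by mouse symbol and are Cd274, Pdcd1lg2, Cd80, Cd86, Cd40, Havcr2, Lgals9, Vsir, Sirpa and Pvr. All 10 were found by Entrez gene number among the 16739 genes listed above 0 in any of 4 RNA-seq libraries, and all 10 passed the filter on low counts that left 11302 genes for testing. The libraries came from CD45+CD11b+F4/80+ cells sorted out of subcutaneous B16-F10 melanomas, 16 days after inoculation of C57BL/6 mice aged 6 to 8 weeks. There were 2 libraries labelled wild type (WT) and 2 labelled Trim24-/-, also called Trim24-deficient, from mice in which the floxed Trim24 gene was deleted by Cre expressed from the lysozyme M locus (Trim24 flox/flox LysM-Cre). LysM-Cre acts in neutrophils and monocytes as well as in macrophages, and controls are described as WT littermates, without saying which alleles they carried. The labels do not say how many mice went into a library, so p-values measure only the spread between these samples.

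A T cell needs a signal beside its antigen receptor, and ligands of the B7 family on antigen-presenting cells supply it. Cd80 and Cd86 bind CD28, which costimulates, and CTLA-4, which inhibits. Cd274 (PD-L1) and Pdcd1lg2 (PD-L2) bind the inhibitory receptor PD-1. In macrophages PD-L1 is known as a target of interferon-gamma and PD-L2 as a target of IL-4 acting through Stat6, a transcription factor the study examines. Cd40 is a receptor by which helper T cells activate the macrophage. Havcr2 (TIM-3) is an inhibitory receptor, Lgals9 (galectin-9) is one of its ligands, Vsir (VISTA) is an inhibitory B7-like molecule, Pvr (CD155) binds TIGIT and CD226, and Sirpa is the macrophage receptor for CD47 that restrains phagocytosis.

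The ligands of PD-1 gave the largest differences of the set, and their genes are neighbours. On GRCm38 chromosome 19, Cd274 (Entrez gene 60533, plus strand, 7 exons in its longest basic GENCODE transcript) spans 29362107 to 29388095 and Pdcd1lg2 (Entrez gene 58205, plus strand, 5 exons) spans 29410919 to 29472927. Their RefSeq promoter windows, which run from before to 50 bases after the start site on GRCm38.p6, are 300 bases long and are shown because these 2 genes had the largest differences. The start site used for Cd274 lies inside its annotated span. Capitals mark matches, on either strand, to 3 patterns, namely TTC and GAA with 4 bases between them (STAT6 type), GGG and CC with 5 bases between them (NF-kB type), and GAAA repeated with 2 bases between (IRF type).
Pdcd1lg2, chr19:29410669-29410968, plus strand: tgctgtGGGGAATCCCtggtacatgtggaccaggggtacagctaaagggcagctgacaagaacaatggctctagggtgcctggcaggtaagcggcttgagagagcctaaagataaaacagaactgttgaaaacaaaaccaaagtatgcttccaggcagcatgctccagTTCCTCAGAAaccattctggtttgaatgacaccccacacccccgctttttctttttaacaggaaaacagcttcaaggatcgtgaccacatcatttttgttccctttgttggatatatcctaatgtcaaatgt
Cd274, chr19:29367188-29367487, plus strand: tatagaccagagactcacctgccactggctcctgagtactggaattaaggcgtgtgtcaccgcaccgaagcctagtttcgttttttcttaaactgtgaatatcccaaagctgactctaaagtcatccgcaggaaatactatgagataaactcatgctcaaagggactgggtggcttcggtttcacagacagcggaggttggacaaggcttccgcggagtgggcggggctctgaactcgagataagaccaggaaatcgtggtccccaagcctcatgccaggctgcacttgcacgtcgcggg
The Pdcd1lg2 window holds TTCCTCAGAA, its first base at position -82 from the start site, and GGGGAATCCC at position -244, and the 2 matches do not overlap. The Cd274 window holds none of the 3 letter patterns. Among 32851 windows of 300 bases over all genes, the STAT6-type pattern was in 6.95%, the NF-kB-type in 50.8% and the IRF-type in 3.44%. Of the other members, windows were listed for Cd80, Havcr2, Lgals9 and Vsir, with 2 NF-kB-type matches in that of Cd80, 1 NF-kB-type and 2 IRF-type matches in that of Lgals9, and none in the remaining 2. A match is a run of letters and not a measured binding site.

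The authors deposited for each library the expected count of each gene, estimated by RSEM, and its FPKM, a value scaled to transcript length and to the library. Totals ran from 4476122 to 5172407 expected counts, so that 3 counts stand at 0.606 to 0.639 CPM (counts normalized to library size, after edgeR's TMM scaling). Where a pair of values is given for a group, it is replicate 1 and then replicate 2. Trim24 itself had 5.86 and 2.08 CPM in WT and 3.41 and 0.411 CPM under the Trim24-/- label, and the groups overlapped, so the latter are named by their label throughout. The values are per gene and do not separate deleted exons from the rest. Xist was at 6.46 to 10.9 CPM in WT and 256 to 437 CPM in the other group, and Y-linked Ddx3y at 73.7 to 102 CPM against 0.411 to 0.426 CPM, so sex-linked transcripts part the libraries as the genotype label does, and sex and genotype cannot be told apart in any difference below.

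Markers of cell types were summed in each library, as a description of the sorted cells and not as a check of the sort. The 10 macrophage markers summed to 16198 to 18259 CPM in WT and to 19095 to 19800 CPM under the Trim24-/- label, led by C1qb. Monocyte markers (6 genes, led by Ccr2) summed to 531 and 656 CPM in WT and to 1676 and 1055 CPM under the Trim24-/- label. Neutrophil markers (9 genes, led by Csf3r) summed to 185 and 222 CPM in WT and to 287 and 448 CPM in the other group. The defining Ly6g was without a count in WT (a floor of 0.606 and 0.625 CPM) and at 1.92 and 0.822 CPM in the other group. Of 5 tested neutrophil markers 4 were higher without overlap, beside 21.4% of all tested genes. The remaining 1, Cxcr2, overlapped, at 63.6 and 84.0 CPM in WT against 42.8 and 76.8 CPM. T and NK cell markers (12 genes) were at 197 and 115 CPM against 414 and 120 CPM, and dendritic cell markers (10 genes) at 102 and 86.7 CPM against 146 and 93.1 CPM, highest in both lists in Trim24-/- labelled replicate 1. Markers of fibroblasts and endothelium summed to 21.8 and 22.9 CPM in WT and to 45.2 and 33.1 CPM in the other group. Those of B cells (46.3 to 55.4 CPM) and of the dissociation response (778 to 1167 CPM) overlapped between groups. Melanoma markers, led by Tyr, summed to 783 and 740 CPM in WT and to 585 and 789 CPM in the other group, so tumor transcripts were present in every library. Of 6 tested melanoma markers 3 were lower without overlap, beside 23.0% of all tested genes, and 3 overlapped. The part of these cells in the differences below was not tested, and in bulk RNA fewer cells of a type and less RNA per cell cannot be told apart.

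**Figure D1:**
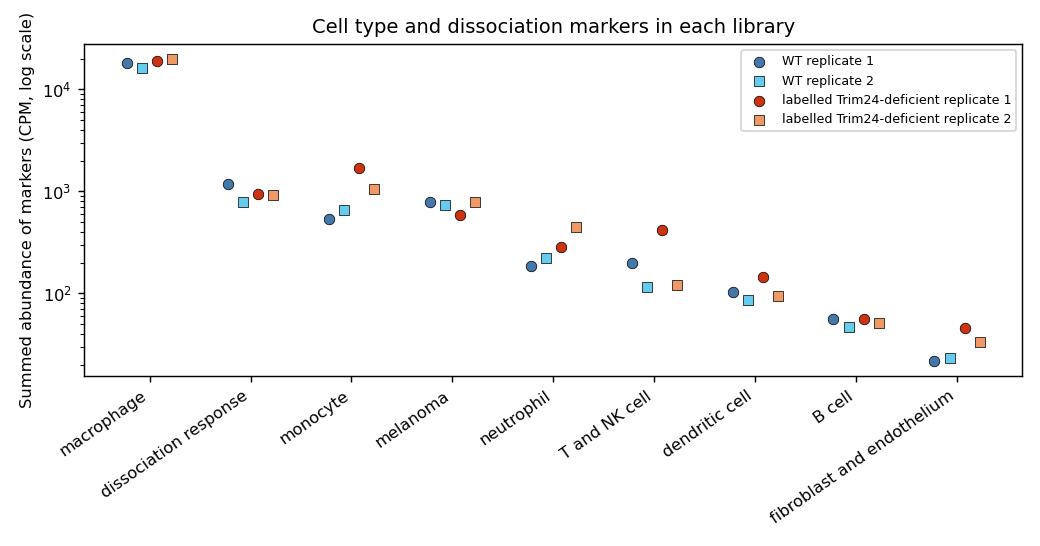
Summed abundance of the marker genes of each cell type and of a dissociation response (CPM, log axis) in each of the 4 libraries, with 1 point per library. Monocyte, neutrophil, macrophage, and fibroblast and endothelium sums of both libraries under the Trim24-/- label lie above both WT sums, with macrophage sums at 19095 and 19800 CPM against 18259 and 16198 CPM. In the fibroblast and endothelium list Pecam1 was the only gene whose groups did not overlap.

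Levels of the 10 members were compared per transcript length, as FPKM. Lgals9 (285 to 400 FPKM) and Sirpa (280 to 362 FPKM) were the highest in every library, in changing order, and ranked between 213 and 330 among all genes. Vsir had rank 3 in every library, at 66.1 to 105 FPKM. Cd274, Cd40, Havcr2 and Cd86 took ranks 4 to 7 in an order that differed between libraries, with 21.7 to 102, 29.7 to 85.3, 22.5 to 33.5 and 26.4 to 41.1 FPKM in turn. Pvr (4.36 to 5.96 FPKM), Cd80 (1.83 to 4.67 FPKM) and Pdcd1lg2 (0.66 to 7.25 FPKM) were the lowest 3 in every library. Pdcd1lg2 had the widest spread, its highest library exceeding its lowest 11.8 times in CPM, and Sirpa the narrowest, at 1.14 times.

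Between the groups, no member was called at an adjusted p below 0.05 and a fold change above 1.5, by edgeR's quasi-likelihood test over all 11302 genes, of which 0.372% (42 genes) were called. At an unadjusted p below 0.05 there were 4 of the 10 members (Pdcd1lg2, Cd274, Cd40 and Cd86), all higher under the Trim24-/- label, against 12.2% of all tested genes in either direction. DESeq2 called 2, Pdcd1lg2 and Cd40, where it called 1.61% of the 10219 genes it gave an adjusted p, and limma on log2 FPKM called 0. For 6 members (the same 4, Cd80 and Lgals9) both libraries under the Trim24-/- label stood above both WT libraries, as did 21.4% of all tested genes. For Pvr alone both stood below, as did 23.0% of all genes. The median log2 fold change was 0.53 over the members and -0.01 over all tested genes. Without Trim24-/- labelled replicate 2, edgeR called 3 members (Cd274, Cd40 and Pdcd1lg2) and 5.54% of 11770 genes, which leaves that group as 1 library assumed to vary like the WT libraries, and no member was called when any 1 of the other 3 libraries was left out.

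**Figure D2:**
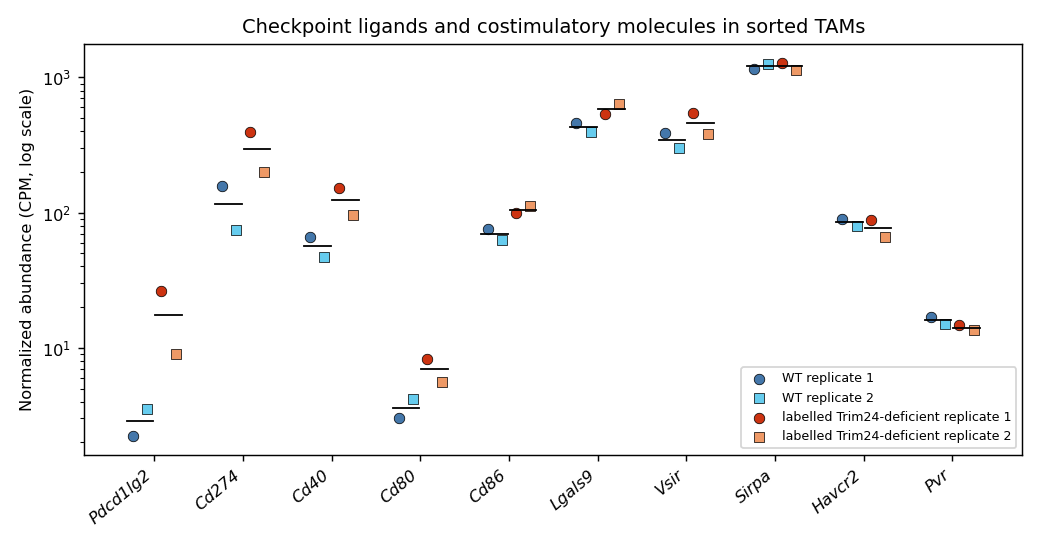
Abundance of each member (CPM, log axis) in the 4 libraries, with 1 point per library and a bar at each group mean. Pdcd1lg2, Cd274, Cd40, Cd80, Cd86 and Lgals9 show both libraries under the Trim24-/- label above both WT libraries, whereas the groups overlap for Vsir, Sirpa and Havcr2.

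Pdcd1lg2 had the largest difference. WT libraries had 2.22 and 3.54 CPM, from 11 and 17 counts, and the others had 26.2 and 9.04 CPM, from 123 and 44 counts. All counts were above the 3-count floor, and the 95% Poisson intervals, which cover counting error only, were 1.11 to 3.97 and 2.06 to 5.67 CPM in WT against 21.8 to 31.3 and 6.57 to 12.1 CPM. The groups did not overlap, but the 2 libraries under the Trim24-/- label differed from each other by 1.53 on the log2 scale, more than the WT libraries did (0.67). The log2 fold change was 2.60 ± 0.55 (standard error, n = 2 per group, adjusted p = 0.102, edgeR), a 6.07-fold difference. Leaving out 1 library at a time gave 1.65 (without Trim24-/- labelled replicate 1) to 3.18 (without its replicate 2), and FPKM with a pseudocount of 1 gave 1.52.

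Cd274 was at 158 and 74.6 CPM in WT and at 394 and 200 CPM under the Trim24-/- label. Within each group the second replicate had about the same relation to the first, with gaps of 1.08 and 0.98 on the log2 scale, and the groups did not overlap. The lower library under the Trim24-/- label (200 CPM) exceeded the higher WT library (158 CPM) by less than the replicates of either group differed. The log2 fold change was 1.35 ± 0.39 (adjusted p = 0.210, edgeR) and ranged from 0.78 (without Trim24-/- labelled replicate 1) to 2.01 (without WT replicate 1) with 1 library left out. Some Cd274 reads were shared with other genes, since its expected counts were not whole numbers (782.15 in WT replicate 1), as was the case for Havcr2 but for none of the other 8 members.

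The genes on either side of the PD-1 ligand locus were measured too. Plgrkt, whose span (29348599 to 29367292) overlaps that of Cd274, was at 53.1 and 45.2 CPM in WT and at 74.5 and 55.7 CPM in the other group (log2 fold change 0.40 ± 0.22, adjusted p = 0.476, edgeR). Ric1, the next tested gene beyond Pdcd1lg2, overlapped between groups (8.88 and 9.38 CPM against 20.9 and 6.99 CPM). Library preparation is not stated to keep strand, so reads from stretches that overlapping genes share cannot be told apart.

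Within a library, the ratio of 2 genes does not depend on library scaling. Cd274 exceeded Pdcd1lg2 by 66.6, 19.7, 14.1 and 20.7 times in FPKM in WT replicates 1 and 2 and replicates 1 and 2 under the Trim24-/- label. WT replicate 1 stands apart from the other 3, whose ratios lie close together. The log2 ratio of Pdcd1lg2 to Cd274 was higher by 1.09 under the Trim24-/- label, with overlapping groups (exact two-sided permutation test, p = 0.667, where 2 against 2 cannot give less than 0.333). It was 0.21 without WT replicate 1, 1.97 without WT replicate 2, and 0.32 on log2(FPKM + 1). A difference between these 2 genes in the size of their change was not shown.

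Cd40 was the most even of the larger differences. It spans 165055614 to 165071654 of chromosome 2 (Entrez gene 21939, plus strand, 9 exons) and had 66.03 and 46.7 CPM in WT and 151 and 95.5 CPM under the Trim24-/- label. The groups did not overlap, and libraries of 1 group lay 0.50 and 0.66 apart on the log2 scale in WT and in the other group. Its log2 fold change was 1.13 ± 0.26 (adjusted p = 0.141, edgeR), and 0.77 to 1.42 with 1 library left out.

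The 2 ligands of CD28 and CTLA-4 lie on chromosome 16, Cd80 (Entrez gene 12519, plus strand) from 38457430 to 38495958 and Cd86 (Entrez gene 12524, minus strand) from 36568956 to 36666158. Cd86 was at 76.1 and 62.9 CPM in WT and at 99.3 and 112 CPM under the Trim24-/- label, with no overlap and narrow gaps within groups (0.27 and 0.17 on the log2 scale). Its log2 fold change was 0.60 ± 0.19 (adjusted p = 0.250, edgeR). Cd80, far scarcer, had 15, 20, 39 and 27 counts, or 3.03 and 4.17 CPM against 8.31 and 5.55 CPM. The Poisson intervals of WT replicate 2 (2.55 to 6.44 CPM) and of Trim24-/- labelled replicate 2 (3.66 to 8.07 CPM) overlap, and the log2 fold change was 0.94 ± 0.45 (adjusted p = 0.433, edgeR), or 0.63 to 1.20 with 1 library left out. Cd86 exceeded Cd80 by 16.7 and 10.04 times in FPKM in WT and by 7.94 and 13.4 times in the other group. The groups overlapped, and the log2 ratio of Cd80 to Cd86 was higher by 0.33 under the Trim24-/- label (exact two-sided permutation test, p = 0.667).

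The balance between an inhibitory and a costimulatory ligand was taken as the ratio of Cd274 to Cd86 in FPKM. It was 1.44 and 0.820 in WT and 2.75 and 1.24 under the Trim24-/- label. Trim24-/- labelled replicate 2 fell between the WT libraries, so the groups overlapped at a log2 difference of 0.77 (exact two-sided permutation test, p = 0.667). With 1 library left out it ran from 0.19 (without Trim24-/- labelled replicate 1) to 1.34 (without its replicate 2), and it was 0.36 without WT replicate 2 and 1.17 without WT replicate 1.

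**Figure D3:**
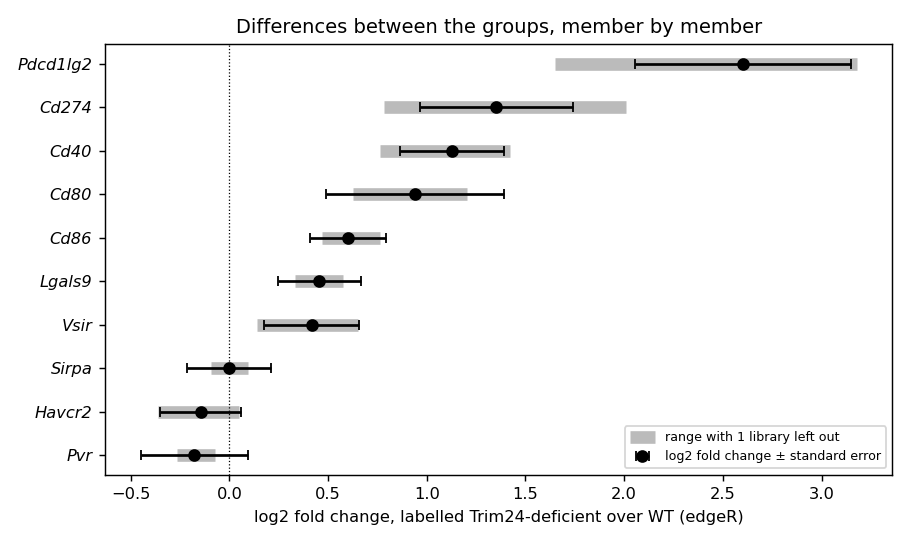
Log2 fold change of each member under the Trim24-/- label over WT (points, with standard errors from edgeR), and the range of the same value when 1 library is left out (grey bars). Pdcd1lg2, Cd274 and Cd40 lie farthest from 0, at 2.60, 1.35 and 1.13, and no member passed an adjusted p of 0.05.

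Galectin-9 and its receptor TIM-3 were both well above the floor. Lgals9 (Entrez gene 16859), which spans 78962979 to 78984924 of chromosome 11 on the minus strand, was measured at 457 and 397 CPM in WT and at 536 and 635 CPM under the Trim24-/- label, without overlap. Its log2 fold change was 0.46 ± 0.21 (adjusted p = 0.419, edgeR). Havcr2 (Entrez gene 171285), which spans 46454931 to 46481255 of the same chromosome on the plus strand, was measured at 89.5 and 80.0 CPM in WT and at 87.5 and 65.8 CPM in the other group. Its groups overlapped, with a log2 fold change of -0.15 ± 0.20 (adjusted p = 0.820, edgeR).

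Vsir, Sirpa and Pvr showed small differences. Vsir (Entrez gene 74048) spans 60346851 to 60430294 of chromosome 10, on the plus strand, and was at 388 and 303 CPM in WT and at 543 and 379 CPM under the Trim24-/- label, so that WT replicate 1 exceeded the lower of these. Its log2 fold change was 0.42 ± 0.24 (adjusted p = 0.515, edgeR), and it ran from 0.14 (without Trim24-/- labelled replicate 1) to 0.65 (without its replicate 2) with 1 library left out. Its span lies inside that of Cdh23, which was at 1.64 to 2.77 CPM. Sirpa (Entrez gene 19261) spans 129591042 to 129632228 of chromosome 2, also on the plus strand, and was at 1160 and 1253 CPM against 1286 and 1126 CPM, the most even member and overlapping between groups, with a log2 fold change of -0.00025 ± 0.21 (adjusted p = 0.9996, edgeR) whose sign differed between settings. Pvr (Entrez gene 52118), which spans 19903578 to 19921143 of chromosome 7 on the minus strand, was measured at 17.0 and 15.002 CPM against 14.7 and 13.6 CPM. The groups did not overlap, but the Poisson intervals of all 4 libraries did (10.5 to 17.3 CPM in the lowest, 13.5 to 21.0 CPM in the highest), and its log2 fold change was -0.18 ± 0.27 (adjusted p = 0.833, edgeR), or -0.26 to -0.07 with 1 library left out.

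Over the whole set, Trim24-/- labelled replicate 1 was the highest in 6 of 10 members and the lowest in 0, and WT replicate 2 was the lowest in 5 and the highest in 0. For Cd274 and Cd40 the libraries ran in 1 order, Trim24-/- labelled replicate 1, then its replicate 2, WT replicate 1 and WT replicate 2. Neither these counts nor this order was compared with all tested genes, so neither is read as particular to the members. The monocyte markers Ly6c2 (190 and 176 CPM in WT, 616 and 295 CPM in the other group) and Plac8 (130 and 98.3 CPM, then 483 and 259 CPM) ran in the same order as these, although the split of reads between Ly6c2 and its close copies is uncertain. Of 8 tested dendritic cell markers 1 was higher and 2 were lower without overlap, beside 21.4% and 23.0% of all tested genes. The other 5 overlapped between groups, and the median log2 fold change was 0.48. The part of monocytes and of the other sorted cells in the levels of the members was not tested.

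Further genes of these pathways were taken from 8 lists of 72 genes, of which 62 were tested. None was called by edgeR, whereas 20 had an unadjusted p below 0.05, 18 higher and 2 lower under the Trim24-/- label, beside 12.2% of all tested genes. DESeq2 called 4, Il2rg, Sirpb1b and Sirpb1c among them, beside 1.61% of all genes. In 32 of the 62 both libraries under the Trim24-/- label were above both WT libraries and in 4 both were below, beside the 21.4% and 23.0% of all tested genes. Without Trim24-/- labelled replicate 2 edgeR called 17 of the listed genes (beside 5.54% of all genes), without its replicate 1 it called 2 (Il2rg and Sirpb1c, beside 3.46% of all genes), and without either WT library 0.

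**Figure D4:**
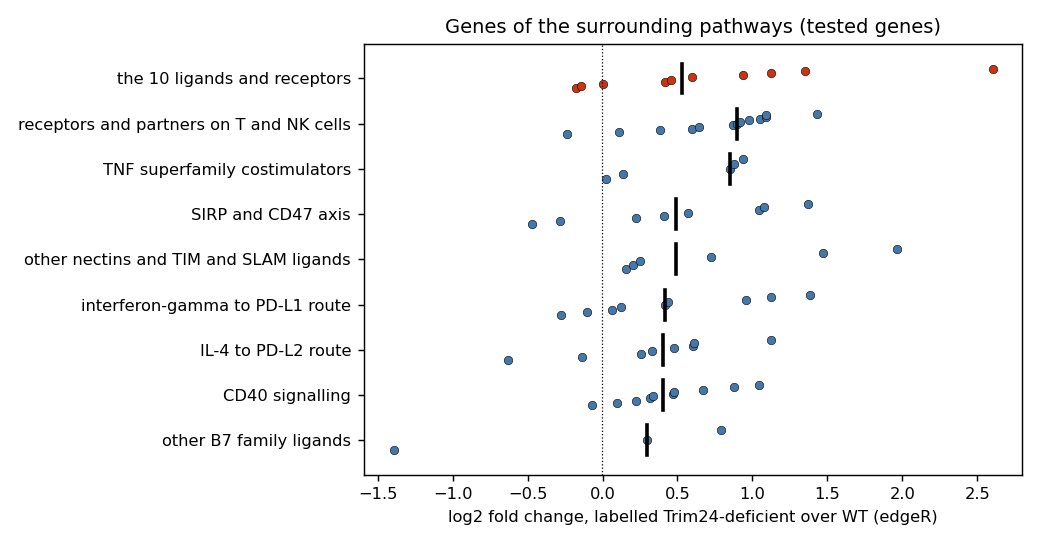
Log2 fold change of the tested genes of each pathway list (points) with the list median (black bar), beside the 10 ligands and receptors (red) and the median of all tested genes (dotted line). List medians run from 0.30 to 0.90, and 0 of these genes were called by edgeR.

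Among 9 tested genes of the interferon-gamma route to PD-L1 and of PD-L1 stability (median log2 fold change 0.42), Irf1, a transcription factor that interferon-gamma induces, was at 214 and 116 CPM in WT and at 510 and 212 CPM under the Trim24-/- label, so that Trim24-/- labelled replicate 2 fell just below WT replicate 1. Jak1 was at 235 and 221 CPM in WT and at 238 and 260 CPM under that label. Cmtm6, which keeps PD-L1 at the cell surface, was at 220 and 191 CPM against 267 and 289 CPM. Both were higher without overlap, and both were uncalled. In 5 of these 9 genes both libraries under that label stood above both WT libraries, as in 21.4% of all tested genes.

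The IL-4 route to PD-L2 was represented by 8 genes with a median of 0.40. Without overlap 5 were higher and 1 lower, beside 21.4% and 23.0% of all tested genes. Il2rg, the common gamma chain of the IL-4 receptor, was at 271 and 219 CPM in WT and at 607 and 460 CPM under the Trim24-/- label (1.12 ± 0.23, adjusted p = 0.0937, edgeR). Il4ra was at 579 and 471 CPM against 658 and 805 CPM, and Il13ra1 at 54.9 and 48.3 CPM against 73.3 and 83.8 CPM, both without overlap and both uncalled. Stat6 was at 240 and 256 CPM in WT and at 283 and 310 CPM in the other group (0.26 ± 0.19, adjusted p = 0.617, edgeR).

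Downstream of Cd40, 10 genes gave a median of 0.40, and 7 were higher without overlap, beside 21.4% of all tested genes. Birc3, an inhibitor of apoptosis that NF-kB induces, was at 46.0 and 44.0 CPM in WT and at 94.6 and 70.5 CPM under the Trim24-/- label (0.87 ± 0.21, adjusted p = 0.151, edgeR). Nfkb2 was at 58.0 and 49.8 CPM against 66.9 and 67.2 CPM, and the adaptor Traf2 at 39.8 and 41.7 CPM against 54.1 and 59.4 CPM. Traf6 overlapped between groups, at 40.004 to 49.9 CPM in WT and 41.7 to 44.0 CPM in the other group.

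In the SIRP and CD47 axis (8 genes, median 0.49) 5 genes were higher and 2 lower without overlap, the ligand Cd47 being the one that overlapped. Over all tested genes 21.4% were higher and 23.0% lower without overlap. Cd47 was at 386 and 354 CPM against 490 and 373 CPM. Ptpn6 (SHP-1), a phosphatase recruited by Sirpa, was at 707 and 550 CPM in WT and at 1055 and 813 CPM under the Trim24-/- label (0.57 ± 0.23, adjusted p = 0.373, edgeR). Ptpn11 (SHP-2), named here after its values were seen, was lower without overlap, at 25.0 and 23.8 CPM against 20.0 and 15.2 CPM. Sirpb1c, also named after its values were seen, was at 104 and 77.5 CPM in WT and at 288 and 183 CPM in the other group (1.37 ± 0.26, adjusted p = 0.0759, edgeR). Sirpb1a and Sirpb1b, likewise, had log2 fold changes of 1.04 and 1.08. These genes are close copies of each other, so the split of reads among them is uncertain.

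Of the other B7 ligands 3 were tested, 1 higher and 1 lower without overlap, beside 21.4% and 23.0% of all tested genes. Icosl, the ligand of ICOS, was at 18.4 and 28.8 CPM in WT and at 26.6 and 31.2 CPM under the Trim24-/- label. Cd276 (B7-H3) was at 19.2 and 36.7 CPM against 4.90 and 16.2 CPM (-1.39 ± 0.49, adjusted p = 0.295, edgeR), and Btnl2 at 6.66 and 6.46 CPM against 9.37 and 13.4 CPM. Vtcn1 was not listed in any library. Among costimulators of the TNF superfamily 5 were tested, and 2 were higher without overlap, beside the same 21.4% of all tested genes. Tnfsf9 (4-1BBL) was at 22.2 and 27.7 CPM in WT and at 21.5 and 33.3 CPM in the other group, and Tnfsf14 (LIGHT) was at 6.87 and 6.67 CPM against 11.7 and 14.2 CPM (0.93 ± 0.32, adjusted p = 0.287, edgeR). Cd48 (193 to 253 CPM) and the inhibitory receptor Cd200r1 (76.5 to 94.8 CPM) had the highest CPM of the nectin, TIM and SLAM list. In that list 4 of 6 tested genes were higher without overlap, beside 21.4% of all tested genes, and Cd48 overlapped.

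Of receptors for these ligands on T and NK cells 13 were tested, and 3 were higher without overlap. That is near the share of all tested genes, 21.4%. Pdcd1 (PD-1) was at 17.8 and 4.38 CPM in WT and at 34.9 and 12.5 CPM under the Trim24-/- label, Lag3 at 16.8 and 5.83 CPM against 39.2 and 7.81 CPM, and Tnfrsf9 (4-1BB) at 17.8 and 3.75 CPM against 42.6 and 15.8 CPM. All 3 overlapped between groups and were highest in Trim24-/- labelled replicate 1, where the T and NK markers were highest too. Tigit, the partner of Pvr, was at 15.8 and 11.04 CPM against 17.0 and 5.75 CPM. Cells other than macrophages may carry these transcripts, and which cells carried them was not tested.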

How the data were processed

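Per the labels and the methods, reads were aligned by the authors with Bowtie against GRCm38/mm10, and RSEM gave gene abundances. Tool versions are not given in the sources used here. Each deposited table holds, for its genes, the expected count (unnormalized) and the FPKM. The deposited transcript length (another column) served only for the length correction. A gene missing from a table was taken as 0. Totals were 4476122 to 5172407 expected counts per library, which limits precision for scarce genes.

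Counts were rounded, low genes were removed by filterByExpr, and libraries were scaled by TMM in edgeR 4.0.16 (R 4.3.3). The 2 groups were compared by its quasi-likelihood test (glmQLFit, glmQLFTest), with no replicate block and with Benjamini-Hochberg adjustment over 11302 genes. A standard error is the log2 fold change divided by the square root of F. Genes were called at an adjusted p below 0.05 and a fold above 1.5. Ratios used scipy 1.17.1.

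Alternatives were DESeq2 1.42.0, limma 3.58.1 on log2 FPKM with a pseudocount of 1 or 0.1 and at least 1 FPKM in 2 libraries, library totals, upper-quartile scaling, no filter, at least 10 counts in every library, removal of the length trend, a replicate block, and each library left out. The scripts were tested on simulated data.

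The members and lists were chosen with earlier results of these data known. All members are named, with at most 4 genes of highest mean CPM per pathway list, and others as stated. Some genes and 1 promoter pattern are not reported here. Symbols and positions are from RefSeq (GRCm38.p6), strands and exons from GENCODE M21.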

Additional observations from a re-analysis of the deposited data

How the results depend on the processing

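Of 130 log2 fold changes of members under the alternatives, 116 kept their direction and their side of the threshold, 8 passed it in the same direction, and 6 turned sign. The 8 that passed were Cd274, Cd40 and Pdcd1lg2 with the replicate number as a block and without Trim24-/- labelled replicate 2, and Cd40 and Pdcd1lg2 with DESeq2. The 6 were Havcr2 without Trim24-/- labelled replicate 2 (0.048, and -0.36 without its replicate 1), and Sirpa with DESeq2 (0.018), no filter (0.0084), the length trend removed (0.059), and without WT replicate 2 (0.056) or Trim24-/- labelled replicate 2 (0.094, lowest -0.094). The count of members called, 0, became 3 with the replicate block, 2 with DESeq2 and 0 to 3 with 1 library left out. That of listed pathway genes, 0, became 12 with the replicate block, 4 with DESeq2, 1 (Sirpb1c) with no filter and 0 to 17 with 1 library left out. Over all genes, the 42 called became 165 with DESeq2, 23 and 20 with limma at a pseudocount of 1 and 0.1, and 25 to 652 with 1 library left out (405 without Trim24-/- labelled replicate 1). The block called 634 of 11302 genes, with 1 residual degree of freedom per gene and a spread taken from all genes, so its p-values do not measure how one gene varied. Deviations of equal-numbered libraries from their group means correlated at 0.166 across genes, which with 2 pairs is no test of pairing. Members lower without overlap, 1, became 2 with library totals and with FPKM, where Havcr2 joined Pvr. Those scalings move the median of all genes by -0.15 (library totals) and -0.13 (log2(FPKM + 1)). The log2 ratio of Cd80 to Cd86 turned sign without WT replicate 1 or Trim24-/- labelled replicate 1, within -0.045 to 0.71 with 1 library left out. The cause of these shifts was not tested. With 2 libraries per group no exact test can go below 0.333, and Cd80 and Pdcd1lg2 rest on 11 to 44 counts in 7 of 8 values.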
